A study of Mus musculus with 6 samples.

Results

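Integrins are the main receptors by which cells hold on to matrix and to other cells, and tetraspanins are membrane proteins that associate with them. From both families 40 genes were taken by symbol from the 47593 gene rows of the series: 16 integrin alpha chains, 8 integrin beta chains and 16 tetraspanins. All 40 had a row. The libraries came from mouse femur bone marrow cells enriched for the receptor c-Kit and infected with an MSCVneo retrovirus that carries MLL-AF9, a leukaemia fusion of the histone methyltransferase MLL with AF9. Both groups carried the fusion. In 3 libraries (WT) its AF9 part was unchanged, and in 3 libraries (E531R) it carried the E531R substitution, and the series title speaks of loss of BCoR-AF9 binding, BCoR being a transcriptional corepressor. Infected cells of both groups were selected on G418 and passaged serially in methylcellulose with cytokines. There was no group without the fusion, and the sources used here do not give mouse strain, age or the cytokines. Whether replicates were separate infections, cultures or animals is unstated in the labels. The p-values thus measure the spread between these libraries only, and it may be technical.

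An integrin reaches the cell surface as a pair of 1 alpha and 1 beta chain, and the pair decides the ligand. In myeloid cells the Itgb2 chain pairs with Itgal (LFA-1), Itgam (Mac-1, the complement receptor CR3), Itgax (CD11c) or Itgad, and these pairs hold leukocytes to other cells and take up complement-coated particles. The Itgb1 chain pairs with many alpha chains that bind collagen, laminin, fibronectin or VCAM1, which anchor blood progenitors in the marrow. Tetraspanins are small proteins that cross the membrane several times, gather integrins and other receptors into membrane domains, and sort proteins into vesicles.

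The recovered depth was 14161139 to 33459668 reads per library. WT replicate 3 stood apart: its median absolute log2 difference from the other WT libraries was 0.314 and 0.333, against 0.0676 to 0.09 for the other pairs of replicates. Kit, the gene used to enrich the cells, averaged 3587 ± 99.96 normalised reads in the WT libraries and 3335 ± 4.07 in the E531R libraries (SD, n = 3 each; limma adjusted p = 0.28, and 0.0212 without WT replicate 3).

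Of the 40 genes, 30 had a mean of at least 10 normalised reads over the 6 libraries and were tested, 15 in each family. Limma (moderated test on log2(value + 1), adjusted p under 0.05 over all tested genes) called 7 higher and 3 lower in E531R. Over all 12991 tested genes it called 19.9%, with 10.4% higher and 9.53% lower. Among integrins 6 of 15 were higher and 1 lower, with a median log2 fold change of 0.22, where all tested genes had 0.01. Among tetraspanins 1 of 15 was higher and 2 lower, with a median log2 fold change of 0.06. Without WT replicate 3, where 47.4% of all tested genes were called, 8 tetraspanins were higher and 4 lower, and 7 integrins were higher and 2 lower. A gene that reaches the minimum mean through 1 group alone has to differ between the groups. Itgax and Tspan13 are such genes, so these counts describe the tested genes and not the families.

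**Figure D1:**
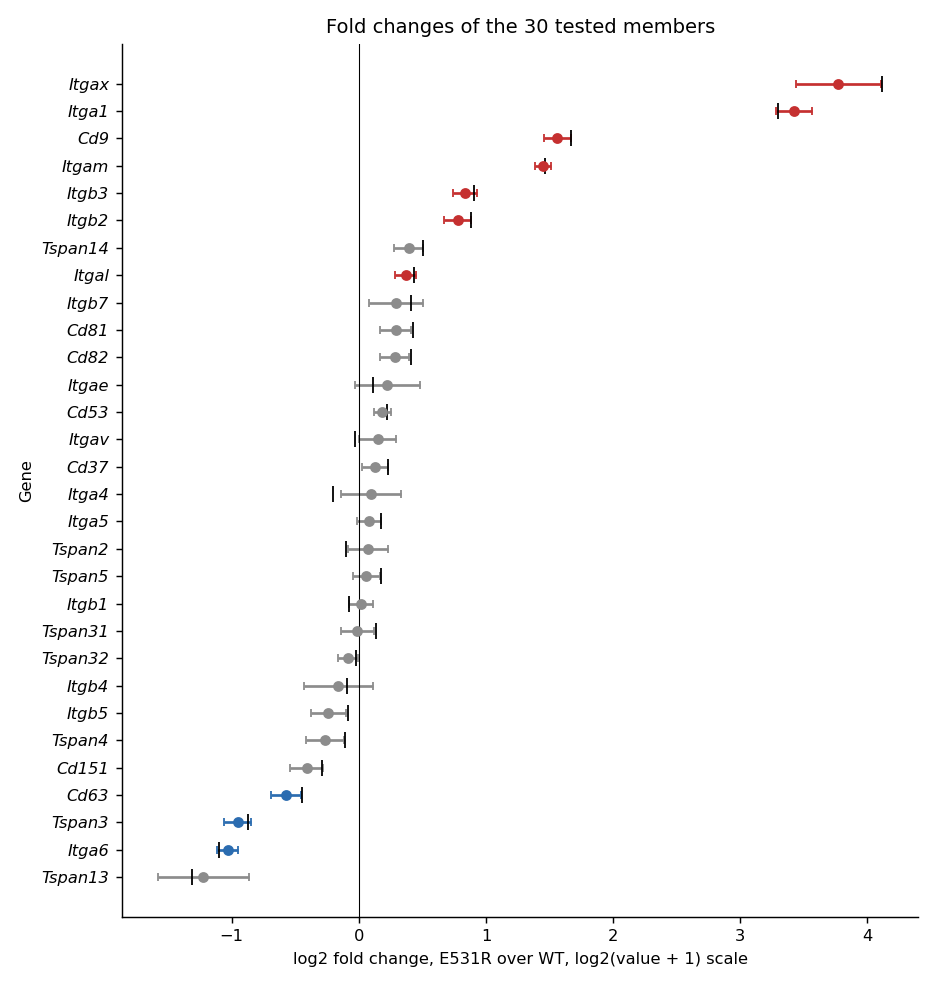
Difference between E531R and WT as a log2 fold change of value + 1 (x axis) of the 30 tested genes (y axis); points are the limma estimates with bars of 1 SE, red called higher, blue called lower and grey not called, and black ticks are the estimates without WT replicate 3. Itgax (3.77) and Itga1 (3.43) lie farthest to the right, and the ticks of Itga4 and Tspan31 lie on the other side of 0 from their points.

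The promoters of the 4 genes that were called and more than 2-fold higher, Itga1, Itgam, Itgax and Cd9, are shown because they let a reader compare the starts of genes that rose together. Each is the 250 bases before a RefSeq start site (GRCm38.p6), written 5′ to 3′ on the gene's strand. They lie at chr13:115101965-115102214 (minus strand), chr7:128062390-128062639 (plus strand), chr7:128129300-128129549 (plus strand) and chr6:125494761-125495010 (minus strand). Capitals mark matches on either strand to GAGGAA (the core bound by the ETS factor PU.1), TTGCNNAA (C/EBP factors), TGANTCA (AP-1), GGGCGG (the GC box of Sp1) and TATAAA (the TATA box).
Itga1 promoter: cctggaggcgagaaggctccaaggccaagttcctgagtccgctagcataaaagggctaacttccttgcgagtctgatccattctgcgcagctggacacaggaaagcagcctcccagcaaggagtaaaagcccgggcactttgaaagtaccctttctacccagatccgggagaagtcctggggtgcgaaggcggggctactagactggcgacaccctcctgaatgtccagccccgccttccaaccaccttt
Itgam promoter: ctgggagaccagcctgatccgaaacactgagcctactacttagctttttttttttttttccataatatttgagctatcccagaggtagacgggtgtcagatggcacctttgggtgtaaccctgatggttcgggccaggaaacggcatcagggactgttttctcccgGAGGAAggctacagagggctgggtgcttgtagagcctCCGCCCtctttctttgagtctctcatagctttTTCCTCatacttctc
Itgax promoter: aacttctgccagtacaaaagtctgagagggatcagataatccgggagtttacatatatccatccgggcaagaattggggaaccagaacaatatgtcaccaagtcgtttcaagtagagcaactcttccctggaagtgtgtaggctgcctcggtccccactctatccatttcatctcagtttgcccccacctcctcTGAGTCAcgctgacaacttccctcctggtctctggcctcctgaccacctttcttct
Cd9 promoter: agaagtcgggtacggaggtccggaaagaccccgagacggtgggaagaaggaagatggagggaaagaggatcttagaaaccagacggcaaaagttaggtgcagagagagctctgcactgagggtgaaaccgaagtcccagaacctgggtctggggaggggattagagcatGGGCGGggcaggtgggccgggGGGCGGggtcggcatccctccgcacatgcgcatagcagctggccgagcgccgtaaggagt

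No motif was found in all 4 windows, and the GC box letters were found in those of Itgam and Cd9. Itgam had GAGGAA beginning 84 bases before the start, its reverse complement 15 bases before it and a GC box match at 47. Itgax had 1 AP-1 match, beginning 56 bases before the start. Cd9 had GC box matches at 81 and 60 bases before the start, and in the Itga1 window none of these letters were found. Of all 32851 promoter windows of this length, 23.3% held GAGGAA, 9.56% TTGCNNAA, 6.75% TGANTCA, 32.7% GGGCGG and 12.4% TATAAA. Counted as windows and not as percentages, of the 41 listed for 32 of the 40 genes 15 held GAGGAA, 3 TTGCNNAA, 2 TGANTCA, 17 GGGCGG and 0 TATAAA. The matches to these letters did not overlap one another in the 4 windows. CpG pairs numbered 16 in the Cd9 window, 10 in Itga1, 6 in Itgam and 5 in Itgax, beside a median of 6 over all windows.

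Of the Itgb2 pairs the beta chain and 3 of 4 alpha chains were called higher in E531R. Itgb2, the shared beta chain of leukocytes, had normalised read counts of 7504, 7552 and 9460 in WT replicates 1, 2 and 3 and of 13961, 13745 and 14027 in the E531R replicates. The groups do not overlap, the E531R libraries are close to one another, and the change was 1.70-fold (log2 fold change 0.78, SE 0.10; limma adjusted p = 0.00211). Itgam, the alpha chain of the complement receptor Mac-1, had 2813, 2623 and 2803 in WT and 7405, 7594 and 7472 in E531R. That is 2.73-fold, with no WT library near any E531R library (log2 fold change 1.45, SE 0.063; limma adjusted p = 1.52e-05).

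Itgal, the alpha chain of LFA-1, which binds ICAM proteins, moved less. Its values were 3657, 3576 and 4184 in WT and 4837, 5000 and 4855 in E531R, 1.29-fold (log2 fold change 0.37, SE 0.079; limma adjusted p = 0.0181). The groups do not overlap, but the call was lost without WT replicate 1 or 2 (limma adjusted p = 0.0735 and 0.058) and without E531R replicate 1, 2 or 3 (0.0815, 0.0965 and 0.0781). Itgax, the alpha chain CD11c known from dendritic cells and some macrophages, had 3.19, 3.44 and 7.87 in WT and 75.1, 64.2 and 83.7 in E531R. The WT values rest on 15 reads in all and the E531R values on 260, and the ratio of means was 15.4 (log2 fold change 3.77, SE 0.33; limma adjusted p = 0.000326). Itgad, the fourth alpha partner, stayed under the minimum mean, at 6.39, 6.89 and 7.09 in WT and 2.78, 4.87 and 4.87 in E531R.

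Itgam, Itgax and Itgad lie next to one another on chromosome 7 on the plus strand of GRCm38, at 128062640 to 128118491, 128129547 to 128150657 and 128154376 to 128223816, with 0 other protein-coding genes between them. Itgal lies on the same chromosome at 127296260 to 127335138, with 38 protein-coding genes between it and Itgam. Itgam and Itgax were called higher, while Itgad, with 19 reads in WT and 14 in E531R, was too low to give a direction. In GENCODE M21 the exons of Itgam share 3450 bases with Gm49368, a gene model on the same strand that is not used here.

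Levels of different genes are compared here per kb of exon, the length of all GENCODE M21 exons of a gene merged. In WT the Itgal and Itgam chains were alike on this scale, with 579 ± 50.2 and 547 ± 21.2 normalised reads per kb (SD, n = 3 each) and overlapping libraries. In E531R, Itgam had 1491 ± 19.0 and Itgal 746 ± 13.6, without overlap. Of the summed alpha partners of Itgb2, Itgam made up 50.1%, 48.8% and 46.6% in the WT libraries and 66.2%, 66.1% and 66.3% in the E531R libraries. The share of Itgal went from 51.3% ± 1.73 to 33.1% ± 0.181, and Itgax went from 0.0878% ± 0.0427 to 0.688% ± 0.0967 without reaching the level of either. With the longest coding transcript as length, the Itgam share was 44.6% ± 1.75 in WT and 62.6% ± 0.0929 in E531R. These shares and the ratios of pairs are given as a description and were not tested.

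**Figure D2:**
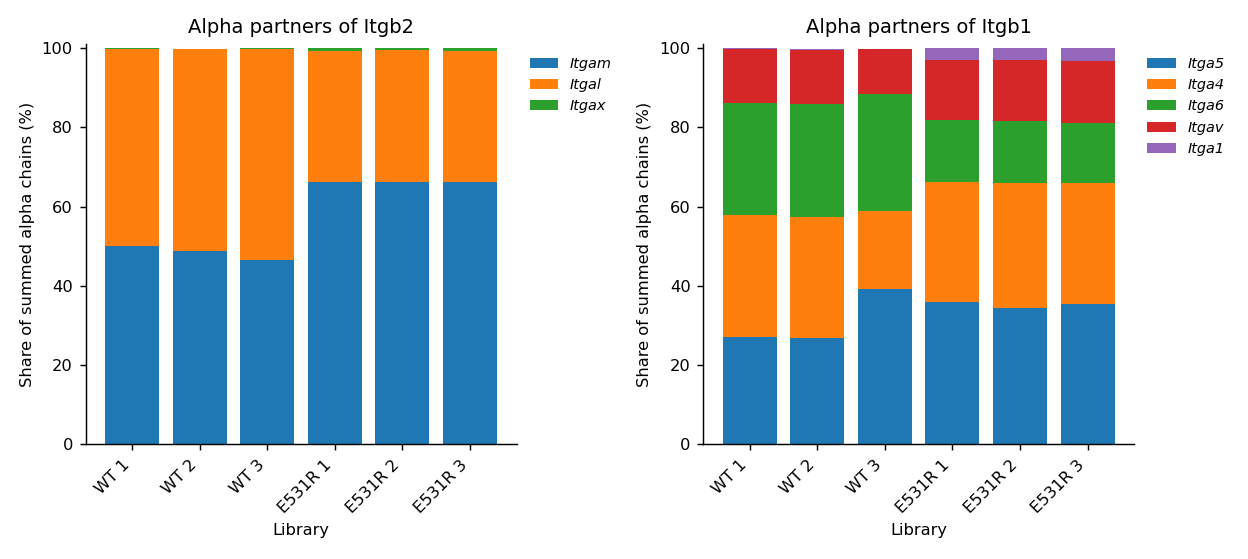
Share in percent (y axis) of each alpha chain in the summed reads per kb of exon of the alpha partners of Itgb2 (left) and Itgb1 (right), by library (x axis); chains under 0.5% in both groups are left out. The Itgam share lies between 46.6% and 50.1% in WT and between 66.1% and 66.3% in E531R, and the Itga6 share between 28.3% and 29.5% in WT and between 15.1% and 15.5% in E531R.

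Among the alpha partners of Itgb1, Itga1 was higher, Itga6 lower and the others were not called. Itgb1 itself, the most widely shared beta chain, had 7134, 7357 and 5952 in WT and 6798, 6826 and 7001 in E531R. The E531R values lie inside the WT range (log2 fold change 0.02, SE 0.094; limma adjusted p = 0.905). Itga1, the alpha chain of a collagen receptor, had 47.9, 54.0 and 38.6 in WT and 509, 506 and 509 in E531R. The rise was 10.9-fold, every E531R library lies above every WT library, and the E531R libraries are nearly equal (log2 fold change 3.43, SE 0.14; limma adjusted p = 1.26e-05). Itga1 lies on chromosome 13 at 114953096 to 115101964 on the minus strand, beside Itga2, the alpha chain of the other main collagen receptor, with no protein-coding gene between them. Itga2 had 0 reads in WT and 1 in E531R. The gene Pelo lies inside the Itga1 span with no shared exon bases, and its means were 997 in WT and 948 in E531R.

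Itga6, the alpha chain of laminin receptors that marks many stem and progenitor cells, had 2699, 2705 and 2324 in WT and 1288, 1281 and 1203 in E531R. All E531R libraries lie below all WT libraries, and the WT mean was 2.05-fold that of E531R (log2 fold change -1.03, SE 0.084; limma adjusted p = 0.000228). It was the only called integrin that was lower. On the per kb scale its share of the alpha partners of Itgb1 was 28.8% ± 0.628 in the WT libraries and 15.4% ± 0.263 in E531R (SD, n = 3 each). In WT the chains Itga5, Itga6 and Itga4 overlapped in level, at 303 ± 33.7, 285 ± 24.2 and 272 ± 86.7 reads per kb. In E531R Itga5 (319 ± 8.62) lay above Itga4 (279 ± 9.29), and Itga6 had fallen to the level of Itgav (139 ± 5.22 and 140 ± 1.62). This order depends on the length used: per kb of the longest coding transcript Itga6 was the highest of these chains in WT, with 39.2% ± 1.32 of the sum, and held 22.2% ± 0.365 in E531R.

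Itga4, the alpha chain that binds VCAM1 and fibronectin, turned on 1 library. It had 4540, 4466 and 2405 in WT and 3905, 4035 and 3775 in E531R, so that the E531R values lie between WT replicate 3 and the other WT libraries. Over all 6 libraries the log2 fold change was 0.10 (SE 0.24; limma adjusted p = 0.805). Without WT replicate 3 it was -0.21 (limma adjusted p = 0.000346). Itga5, the fibronectin receptor chain, had 1416, 1380 and 1684 in WT and 1623, 1557 and 1543 in E531R (log2 fold change 0.08; limma adjusted p = 0.578). It too passed without WT replicate 3, toward higher values (log2 fold change 0.17; limma adjusted p = 0.00486). Itga4 and Itga5 were the integrins whose call was gained without that library.

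**Figure D3:**
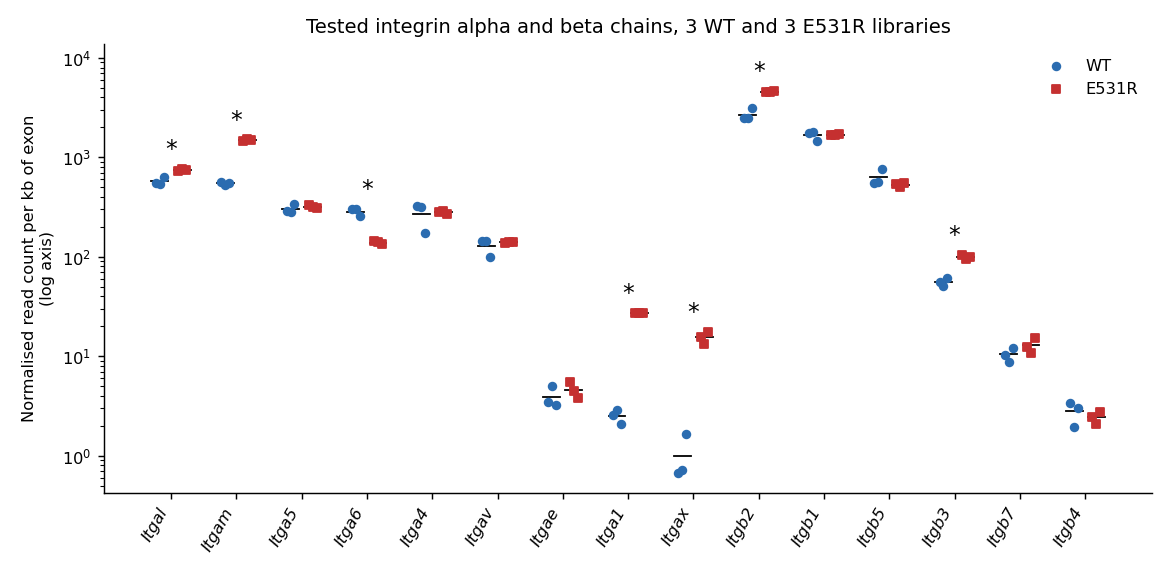
Normalised read count per kb of exon on a log y axis for the 15 tested integrin chains (x axis), alpha chains first and beta chains after them; points are libraries (blue circles WT, red squares E531R), black bars are means of 3 libraries, and an asterisk marks genes called by limma. Itga1 and Itgax show the widest gaps between groups, and 1 WT point of Itga4, that of replicate 3, lies below the others.

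The Itgav chain, which binds vitronectin and osteopontin with several beta chains, had 1544, 1536 and 1062 in WT and 1491, 1525 and 1503 in E531R, and the groups overlap (log2 fold change 0.15, SE 0.15; limma adjusted p = 0.535). Of its beta partners, Itgb3 was higher in E531R. Its values were 327, 301 and 362 in WT and 614, 562 and 590 in E531R, 1.78-fold without overlap (log2 fold change 0.84, SE 0.096; limma adjusted p = 0.00111). Itgb5, a vitronectin receptor chain, had 1973, 2010 and 2743 in WT and 1906, 1779 and 1949 in E531R. All WT values lie above all E531R values, but limma did not call the difference (log2 fold change -0.24, SE 0.13; limma adjusted p = 0.272). Among tested genes 44.0% had groups that do not overlap, and among the tested integrins 8 of 15. Itgb6 and Itgb8, the partners that activate TGF-beta, had 0 reads in both groups, where a count of 0 allows up to 3 reads of 64449035 in WT and of 81452701 in E531R (counting error only).

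Itgb3 is also the partner of Itga2b, the chain of the platelet fibrinogen receptor. Itga2b had 4.79, 8.04 and 3.94 in WT and 7.64, 4.87 and 4.87 in E531R, under the minimum mean, on 15 and 21 reads. On the per kb scale Itgav made up 99.2% ± 0.213 of these 2 alpha chains in WT and 99.2% ± 0.214 in E531R. Platelet markers were higher where called: 5 of 6 tested of 14 were called higher and 0 lower, beside 10.4% and 9.53% of all tested genes. These markers summed to 145 to 154 normalised reads in WT and 589 to 605 in E531R. Of their defining genes Gp6 had no read, and Pf4, Gp1bb and Selp reached the minimum mean through E531R alone. Their part in the Itgb3 result was not tested. In bulk libraries more cells of a type and more RNA per cell cannot be told apart.

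Few transcripts were counted for the remaining alpha and beta chains. Itgae, the chain that binds E-cadherin, averaged 17.96 ± 4.36 normalised reads in WT against 20.99 ± 3.78 in E531R (SD, n = 3 each; limma adjusted p = 0.579), and its partner Itgb7 had 28.9 ± 4.87 and 35.6 ± 5.89 (limma adjusted p = 0.389). Itgb4, the laminin receptor chain of epithelia that pairs with Itga6, had 19.7 ± 5.27 and 17.1 ± 2.44 (limma adjusted p = 0.708). All 3 had overlapping groups. Itga7 had 16 and 20 reads over the WT and E531R groups, Itga8 had 7 and 3, Itga3 had 3 and 0, and Itga9 had 1 and 0. No fold is given for these untested chains.

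Considered as pairs, 13 of 22 textbook combinations had both chains tested. Per kb of exon the alpha chain was the lower of the pair in every WT library for 10 pairs, and likewise in every E531R library. The beta chain was the lower one for Itgav with Itgb3, Itga6 with Itgb4 and Itga4 with Itgb7. The ratio of alpha to beta did not overlap between groups in 7 of these 13 pairs. Of single tested genes 44.0% had groups that do not overlap, but no such share was computed for ratios. Several of the pairs share a chain, so they are not separate observations. For Itgam with Itgb2 the ratio was 0.228, 0.211 and 0.180 in WT and 0.322, 0.336 and 0.324 in E531R. Itgam thus rose more than its beta chain. Itgal with Itgb2 went the other way, from 0.217 ± 0.0107 to 0.164 ± 0.00469 (SD, n = 3 each); Itgb2 had the larger fold change of the pair. The 4 alpha partners together came to 0.424 ± 0.0348 of Itgb2 in WT and 0.494 ± 0.0117 in E531R.

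The Itga6 to Itgb1 ratio was 0.171, 0.166 and 0.177 in WT and 0.0857, 0.0848 and 0.0777 in E531R. Of this pair the alpha chain was called lower and Itgb1 was not called. Itga1 with Itgb1 went from 0.0015 ± 9.68e-05 to 0.0162 ± 0.000236 and so remained the scarcest tested alpha partner of Itgb1. The listed alpha partners of Itgb1 summed to 0.595 ± 0.0129 of it in WT and 0.538 ± 0.0195 in E531R. For Itgav with Itgb3 the ratio was 2.59, 2.81 and 1.61 in WT and 1.33, 1.49 and 1.40 in E531R, with WT replicate 3 nearest to the E531R libraries. Itgav with Itgb5 had 0.259, 0.253 and 0.128 in WT and 0.259, 0.283 and 0.255 in E531R, where again WT replicate 3 was the library apart.

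**Figure D4:**
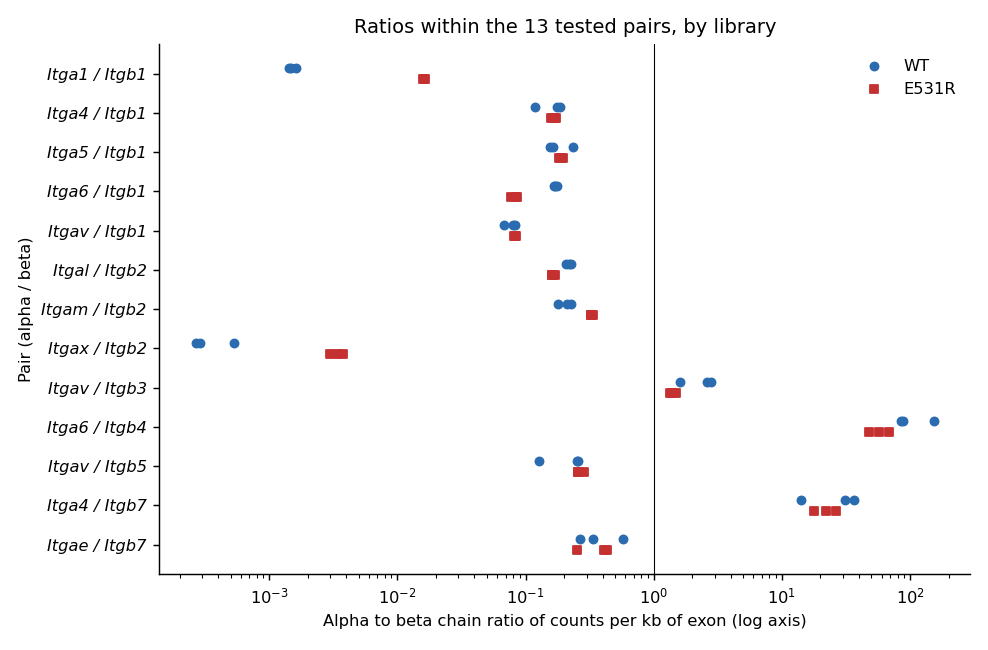
Ratio of alpha to beta chain, both as normalised reads per kb of exon, on a log x axis for the 13 tested pairs (y axis), with 3 WT (blue circles) and 3 E531R (red squares) libraries each; the vertical line marks equal levels. The E531R points lie to the right of all WT points for Itga1, Itgam and Itgax, and to their left for Itga6 with either partner, Itgal with Itgb2 and Itgav with Itgb3.

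Of the tetraspanins, Cd9 was higher in E531R and Cd63 and Tspan3 lower. Cd9, a partner of integrins that is abundant on platelets and some myeloid cells, had 524, 528 and 654 in WT and 1648, 1617 and 1748 in E531R. The groups lie far apart, at 2.94-fold (log2 fold change 1.56, SE 0.10; limma adjusted p = 9.61e-05). On the per kb scale Cd9 had rank 10 of the 16 in WT and rank 6 in E531R, where its libraries overlapped those of Tspan31. The E531R rank depends on the length used: per kb of the longest coding transcript it was 5, at 1361 ± 55.8 beside 1107 ± 13.7 for Tspan31 (SD, n = 3 each). Tspan3, which is known to be needed for myeloid leukaemia growth in mice, had 795, 696 and 879 in WT and 407, 383 and 429 in E531R. Its WT mean was 1.94-fold that of E531R, and no libraries of the groups overlap (log2 fold change -0.95, SE 0.11; limma adjusted p = 0.000973).

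Cd63, the tetraspanin of late endosomes, lysosomes and granules, was the most abundant of the 16 in both groups, with 4857 ± 781 normalised reads per kb in the WT libraries and 3240 ± 166 in E531R (SD, n = 3 each). Its values were 16369, 16084 and 21198 in WT and 11531, 11623 and 12632 in E531R. The groups do not overlap, and WT replicate 3 is the highest library (log2 fold change -0.57, SE 0.12; limma adjusted p = 0.0159). The call was lost without E531R replicate 1, 2 or 3 (limma adjusted p = 0.0785, 0.0771 and 0.0508).

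The other tested tetraspanins were not called. Tspan14, one of the group that guides the protease ADAM10, had 1770, 1566 and 2113 in WT and 2421, 2267 and 2405 in E531R (log2 fold change 0.39; limma adjusted p = 0.0558), and DESeq2 on the recovered reads called it (adjusted p = 0.0235). Tspan5, of the same group, had 1413 ± 201 and 1463 ± 17.5 (SD, n = 3 each). Cd53 and Cd37, tetraspanins of white blood cells, had log2 fold changes of 0.18 (limma adjusted p = 0.106) and 0.13 (adjusted p = 0.426). Cd81 and Cd82 had 0.29 and 0.28 (limma adjusted p = 0.148 and 0.146), and Cd151, which binds laminin receptors such as Itga6, had -0.41 (limma adjusted p = 0.0738).

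Tspan13 was low, with 23.9, 18.4 and 17.3 in WT and 12.5, 4.87 and 7.79 in E531R, on 53 and 31 reads. Its groups do not overlap, and limma gave a log2 fold change of -1.22 (SE 0.36, adjusted p = 0.0551). Tspan13 reached the minimum mean through WT alone (means of 19.9 in WT and 8.39 in E531R). Its lack of overlap, and its call without WT replicate 3, thus follow in part from the filter. Tspan2, Tspan4, Tspan31 and Tspan32 had log2 fold changes between -0.26 and 0.07, with overlapping groups and adjusted p of 0.276 to 0.957. Tspan31 shares 641 of its exon bases with the opposite-strand gene Cdk4, and Tspan4 shares 292 with Chid1. The sources used here do not give the strand setting of the counting, and reads of these partners therefore cannot be told apart. Tspan15 had 0 reads in WT and 1 in E531R and was not tested.

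Without WT replicate 3 the tetraspanins had 8 higher and 4 lower of 15, beside 47.4% of all tested genes called (3159 higher and 2999 lower). Cd37, Cd53, Cd81, Cd82, Tspan5, Tspan14 and Tspan31 then joined Cd9 on the higher side, with log2 fold changes of 0.14 to 0.51, and Cd151 and Tspan13 joined the lower one, with -0.29 and -1.31. In Cd81 the WT libraries had 3019, 2851 and 3885 and the E531R libraries 3964, 3869 and 3975, so that WT replicate 3 alone touches the E531R range. In Cd37 the WT libraries had 2687, 2638 and 3314 and the E531R libraries 3114, 3082 and 3184, and WT replicate 3 lies above all of them.

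**Figure D5:**
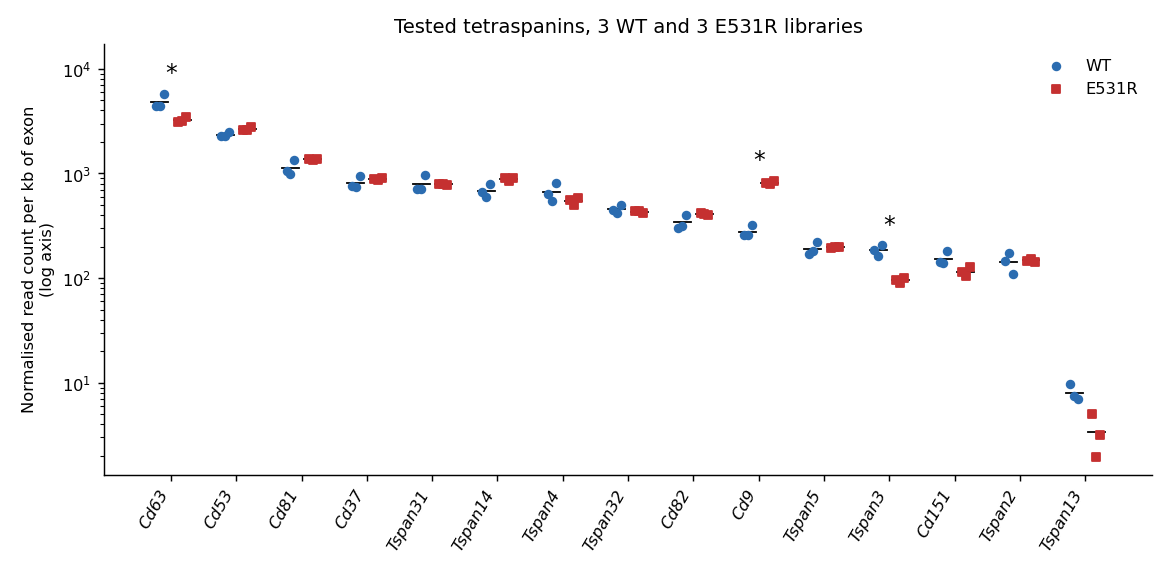
Normalised read count per kb of exon on a log y axis for the 15 tested tetraspanins (x axis, ordered by WT mean); points are libraries (blue circles WT, red squares E531R), black bars are means of 3 libraries, and an asterisk marks genes called by limma. Cd63 is highest in both groups, and the groups of Cd9 and Tspan3 lie far apart.

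Genes that switch integrins on and tie them to the cytoskeleton were mostly higher where called. Of 31 tested activators and adaptors 15 were higher and 2 lower, with a median log2 fold change of 0.34, beside 10.4% and 9.53% of all tested genes. Of the lower ones, Kank1 (means of 28.8 in WT and 7.04 in E531R) reached the minimum mean through WT alone. Its call and the count that holds it thus follow in part from the filter. Those with small adjusted p included the Src family kinase Fgr, the actin linker Vcl (vinculin) and the docking protein Nedd9. Fgr went from 21.2 ± 8.93 to 304 ± 7.83 (SD, n = 3 each; limma adjusted p = 0.000105). Vcl went from 917 ± 20.9 to 2004 ± 87.5 and Nedd9 from 600 ± 42.4 to 1316 ± 47.7 (limma adjusted p = 5.93e-05 and 0.000126). The count of higher activators fell to 9 without WT replicate 1 or any 1 E531R library. It was 24 without WT replicate 3, where 47.4% of all tested genes were called.

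Ligands and counter-receptors moved both ways: of 27 tested, 8 were higher and 10 lower, with a median log2 fold change of -0.13, beside 10.4% and 9.53% of all tested genes. Of the called ligands, Cdh1 and Jam2 (higher) and Icam4 and Lamb2 (lower) reached the minimum mean through 1 group alone. Their calls and the counts that hold them thus follow in part from the filter. The lower ligands numbered 6 without E531R replicate 2 or 3. Without WT replicate 3 the list had 12 higher and 13 lower, beside 47.4% of all tested genes called. Vcam1, the cell surface ligand of Itga4 with Itgb1, went from 704 ± 24.6 in WT to 85.8 ± 9.75 in E531R, and Lama5, a laminin chain bound by Itga6 pairs, from 175 ± 30.5 to 25.6 ± 1.13 (SD, n = 3 each; limma adjusted p = 9.01e-06 and 6.65e-05). Spp1 (osteopontin), a ligand of Itgav pairs, and Adam8, a surface protease with an integrin-binding domain, were higher, with log2 fold changes of 5.12 (limma adjusted p = 1.44e-06) and 2.50 (adjusted p = 1.28e-05). Icam1 and Icam2, the ligands of Itgal with Itgb2, had log2 fold changes of -0.33 (limma adjusted p = 0.102) and -0.43 (adjusted p = 0.0767), and were picked with their values in view. Without WT replicate 3 both were called lower (limma adjusted p = 0.00819 and 0.000516).

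Of 20 tested partners and trafficking genes of tetraspanins 4 were higher and 0 lower, with a median log2 fold change of 0.14, beside 10.4% and 9.53% of all tested genes. Cd36, a scavenger receptor, went from 1.44 ± 0.253 to 75.6 ± 23.4, the lectin Clec7a from 79.6 ± 18.9 to 300.2 ± 17.5 and Cldn1 (claudin 1) from 3.17 ± 2.75 to 86.0 ± 7.06 (SD, n = 3 each; limma adjusted p = 6.48e-05, 0.000459 and 0.00284). Cd36 and Cldn1 had 4 and 9 reads in WT and reached the minimum mean through E531R alone, so their calls and the count that holds them follow in part from the filter. Ap3b1, a subunit of the adaptor that sorts cargo to lysosomes, had a log2 fold change of 0.31 (limma adjusted p = 0.0117), and was not called when E531R replicate 1, 2 or 3 (0.0716, 0.0694 and 0.0721) or WT replicate 1 (0.0535) was left out. Without WT replicate 3 this list had 13 higher and 2 lower, beside 47.4% of all tested genes called. Of 18 further integrin and tetraspanin genes 5 were tested. Itgb2l, a relative of Itgb2, went from 102 ± 12.3 to 979 ± 18.1 (limma adjusted p = 6.2e-06). Rom1, a retinal tetraspanin, went from 88.9 ± 9.22 to 56.2 ± 9.74 (limma adjusted p = 0.0351), lost without WT replicate 1 or 2 (adjusted p = 0.0657 and 0.0746) and without E531R replicate 2 or 3 (0.139 and 0.132).

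Markers of monocytes and macrophages, of neutrophils and of eosinophils were mostly higher where called. Of 12 tested monocyte and macrophage markers of 15, 10 were higher and 1 lower, beside 10.4% and 9.53% of all tested genes. The list summed to 27977 to 33277 normalised reads in WT and 35883 to 39765 in E531R. Ly6c2, its most abundant gene, had means of 22715 and 22415. C1qa and C1qb, defining genes of tissue macrophages, had means of at most 0.556. Mpeg1, a pore-forming protein of macrophages, had means of 382 in WT and 3649 in E531R, and Cd68, a lysosomal protein of macrophages, 250 and 1250 (limma adjusted p = 1.44e-06 for Mpeg1 and 1.74e-05 for Cd68). The list had a median log2 fold change of 2.18, and its 1 lower gene was the chemokine receptor Ccr2 (4448 and 788). Of 14 tested neutrophil markers of 15, 13 were higher and 0 lower, beside 10.4% and 9.53% of all tested genes. The list summed to 158109 to 192116 in WT and 286947 to 298832 in E531R. These sums were mostly Mpo (means of 93563 in WT and 137250 in E531R) and Elane (67552 and 80438). Mpo was called (limma adjusted p = 0.00631) and Elane was not (adjusted p = 0.217). In the monocyte list Cx3cr1 (5.70 and 17.5) and here Mmp9 (5.14 and 126) reached the minimum mean through E531R alone. Their calls and the counts that hold them thus follow in part from the filter. Eosinophil markers had 2 higher of 2 tested, beside 10.4% of all tested genes, with sums of 58.6 to 79.5 and 534 to 656. These were Ear2 (means of 12.3 in WT and 437 in E531R) and Siglecf (55.3 and 132). Of the defining genes of eosinophils, Epx had 3 reads in WT and 1 in E531R, Prg2 had 1 and 8, and Il5ra had no read. The part of these marker lists in the integrin and tetraspanin results was not tested.

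Of the other marker lists none had more than 1 gene called higher over all 6 libraries. Over all tested genes 10.4% were called higher and 9.53% lower. Stroma and endothelium markers had 2 lower of 4 tested, summed to 5659 to 6601 in WT and 1571 to 1670 in E531R and held Pecam1, itself also a leukocyte adhesion protein, as the most abundant gene, while Cxcl12 and Emcn had no read. Dendritic cell markers had 1 higher and 2 lower of 4 tested, with sums of 1239 to 1613 and 1100 to 1208 that were mostly Bst2. Cd74 was higher (log2 fold change 2.67) and H2-Ab1 and Flt3 were lower (-5.51 and -2.65), and their part in the Itgax result was not tested. Each reached the minimum mean through 1 group alone, with WT and E531R means of 5.22 and 36.8, 76.9 and 0.788, and 42.6 and 5.98. These calls and the counts that hold them thus follow in part from the filter. Mast cell and basophil markers had 0 higher and 2 lower of 4 tested, and 1 lower without E531R replicate 1 or 2 (sums of 396 to 468 and 326 to 361; Mcpt4, Cma1, Fcer1a and Prss34 had no read). Erythroid, B cell and T and NK cell markers had 0 called of 2, 2 and 1 tested. Without WT replicate 3, 47.4% of all tested genes were called. The B cell list then had 1 higher and 1 lower, the mast cell list 3 lower and the stroma list 1 higher and 2 lower. The higher stroma gene, Col1a1 (means of 6.22 in WT and 17.4 in E531R), reached the minimum mean through E531R alone. The monocyte and neutrophil lists had 11 and 14 higher and 1 and 0 lower.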

How the data were processed

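Total RNA of 6 libraries, 3 WT and 3 E531R by their titles, was analysed. The submitters' processing notes list GRCm38 and, without versions, the tools DESeq2, featureCounts, HISAT2, cutadapt, SAMtools and FastQC. The sources used here give no strand setting. The deposited values are a signal, read counts that the authors divided by 1 size factor per library. 100% of values came out as whole reads within 0.001 reads, 1 read being worth 0.695 to 1.60 units. In the authors' deposited table, also with log2 fold changes, a Wald score and p-values per the file headers, the same 10 of the 40 genes pass at an adjusted p under 0.05. A shift shared by all genes would be hidden by size factors.

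Limma 3.58.1 with an intensity trend (R 4.3.3) was fitted to log2(value + 1) of 12991 genes with a mean of at least 10, two-sided, with Benjamini-Hochberg adjustment at 0.05, with no covariate. On this scale changes of low genes are understated. The script was tested on simulated data. Alternatives were other pseudocounts, filters and scalings, edgeR 4.0.16, DESeq2 1.42.0 and voom on recovered reads, a replicate block, a 2-fold minimum, each library left out and, added after seeing the data, another transcript length. edgeR on the recovered reads called 1393 genes higher and 1251 lower. Positions and exon lengths come from GENCODE M21 and promoters from RefSeq. All 40 genes are accounted for. From each further list up to 4 called genes with the smallest adjusted p are named, plus the most abundant marker where described and genes that show a limit. Some genes that this rule would name are not reported here. The members and lists were chosen with earlier results of these data known.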

Additional observations from a re-analysis of the deposited data

How the results depend on the processing

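Under the 16 alternatives other than the 2-fold minimum, 8 of the 10 called genes kept their direction and side of the threshold wherever they were tested. Itgax, with a mean of 39.6 over all libraries, was not tested at a minimum mean of 50. Itgal and Cd63 lost their calls when single libraries were left out. WT replicate 3 moved most. Without it all genes gave 3159 higher and 2999 lower, integrins 2 lower, tetraspanins 8 higher and 4 lower, activators 24 higher, and tetraspanin partners 13 higher and 2 lower, while Itga4 turned to -0.21 and Tspan31 to 0.14 on the log2 scale. Over single libraries left out, all genes ran from 819 to 3159 higher and 746 to 2999 lower, activators from 9 to 24 higher and 1 to 2 lower, ligands from 6 to 13 lower, tetraspanin partners from 3 to 13 higher and 0 to 2 lower, integrins from 1 to 2 lower, tetraspanins from 1 to 8 higher and 1 to 4 lower, and further family members from 0 to 1 lower, while Itga4 ran from -0.21 to 0.25 and Tspan31 from -0.087 to 0.14. The 2-fold minimum gave 578 higher and 562 lower genes, 3 higher integrins, 0 lower tetraspanins, 4 higher activators, 6 lower ligands and 0 lower among further family members. TMM, DESeq2 and voom each gave 2 higher tetraspanins. A minimum mean of 50 gave 1 lower activator and 2 higher tetraspanin partners, no filter gave 1 lower partner, and DESeq2 and the replicate block gave 0 lower further family members. Same-numbered replicates deviated together with r of 0.00174, 0.192 and 0.238, and not every library correlated best with its own number, so the numbers were not taken as pairs. With the block all genes gave 1179 higher and 1062 lower, and among the 40 genes it added Cd151 (limma adjusted p = 0.045). Per kb of the longest coding transcript, chosen after seeing the data, the order of Itga4, Itga5 and Itga6 changed, as did that of some tetraspanins, among them Cd9 in E531R. The depth of 14161139 reads in the shallowest library limits what can be said of chains with few reads.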
